A study of Homo sapiens with 6 samples.

Results

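The genes described here are the histone genes of A375 cells, the templates of the proteins that package DNA into chromatin. They were taken from the deposited gene table by older symbol, as rows starting with HIST1H to HIST4H, H1F, H2AF, H2BF or H3F, after 7 pseudogene rows and 1 antisense row were set aside. Of 18539 listed genes, 37 met this rule: 26 replication-dependent genes (HIST symbols) and 11 replacement genes (H1F, H2AF and H3F symbols, with no H2BF gene listed). A375 is an established human malignant melanoma line, and total RNA was sequenced from 3 libraries of shControl cells and 3 of shMMP9 cells. The shMMP9 cells carried pLKO.1 lentivirus with 1 hairpin against the coding region of MMP-9, the gelatinase that the title of the series connects with proteolysis of the histone H3 tail, and the shControl cells are described as mock-depleted, with no control hairpin sequence stated. The infection was described for both with polybrene and with selection for 2 weeks in puromycin at 2 μg/ml, in medium with 10% serum. Both groups are therefore selected pools of 1 line, 1 hairpin was used, and the labels do not tell whether replicates are separate cultures. The p-values here therefore speak of the spread among these 6 samples alone, which may be technical.

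Nucleosomes hold DNA around a core of H2A, H2B, H3 and H4, and the linker histone H1 sits where DNA enters and leaves. Replication-dependent histone genes are clustered, mostly have no intron and are expressed in S phase, and their mRNAs usually end after a conserved stem-loop in place of a poly(A) tail, which the stem-loop binding protein recognises. Replacement variants are transcribed throughout the cell cycle from single genes as polyadenylated mRNAs, and chaperones exchange them into chromatin outside replication.

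The stem-loop is the sequence feature that separates the classes, so it was searched for in annotated transcripts of GENCODE 29, within 100 bases after the coding end, as a 16-base pattern of GGNNCTT followed without a gap by NTNA and then NNNCC. It was found in 21 of the 26 listed replication-dependent genes and in 1 of the 11 replacement genes, H2AFX, against 47 of 19940 protein-coding genes (0.236%). The 47 include these histone genes and 11 replication-dependent genes that are not listed. A few stem-loops of listed genes are shown 5′ to 3′, with the stem arms of 6 bases in capitals around a loop of 4 bases. They belong to the genes that rose, to genes of this class with a mean scaled count of at least 5 and to H2AFX.
HIST1H2AG: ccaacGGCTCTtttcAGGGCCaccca
HIST2H2BF: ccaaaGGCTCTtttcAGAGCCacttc
HIST3H2A: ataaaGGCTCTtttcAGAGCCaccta
HIST2H2AA4: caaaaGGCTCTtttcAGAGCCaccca
HIST4H4: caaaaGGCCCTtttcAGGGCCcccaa
HIST2H4A: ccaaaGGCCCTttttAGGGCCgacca
H2AFX: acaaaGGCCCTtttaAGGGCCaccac
The 16-base form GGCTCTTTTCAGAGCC was the most frequent, in 13 of the listed replication-dependent genes, and the H4 genes shown and H2AFX have a stem that opens with GGCCCT. The 5 listed genes with no match were HIST1H1C, HIST1H1E, HIST1H2BK, HIST2H2AC and HIST2H3D, and the gene models of 4 of the 26 end at the stop codon, so that no stem-loop could be found in them. Genes of this class that the table lists differ in annotation from those it does not: 20 of 26 listed genes have a model that runs over 100 bases past the coding end, against 10 of 45 that are not listed, and 31 of those 45 models end at the stop codon. Whether poly(A) RNA was selected is not given in the sources used here, and how far library type or annotation set the levels of this class was not tested.

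The 6 libraries held 21854114 to 28005552 estimated reads on listed genes. MMP9 itself checks the labels: it stood at 26.1, 24.3 and 28.7 scaled counts in the shControl libraries, by replicate, and at 16.2, 14.6 and 17.1 in shMMP9, and its log2 change was -0.69 (SE 0.0847, adjusted p = 1.25e-05, limma). Scaled counts are gene counts brought by the authors to a common upper quartile, and a log2 change compares the groups on log2(scaled count + 1), with negative values for genes lower in shMMP9. The added 1 makes the changes of weak genes appear smaller. Of 9 melanoma markers 7 were listed, with sums of 844 to 955 scaled counts in shControl and 1733 to 1852 in shMMP9. Of 6 tested, 4 rose (SOX10, S100B, MIA and CSPG4) and 1 fell (MITF) at an adjusted p under 0.05 (limma). Among all genes tested 25.0% rose and 32.5% fell. The neural crest factor SOX10 was at 378 ± 18.4 in shControl (SD, n = 3) and at 785 ± 40.6 in shMMP9, while the pigment antigen MLANA had 1 to 19 reads per library and TYR and DCT were not listed. MITF, the melanocyte transcription factor, was at 35.5 ± 2.48 and 27.7 ± 0.876, so these lineage factors were present in both groups and moved in opposite directions (log2 changes of 1.05 and -0.34, adjusted p = 3.37e-09 and 6.66e-04, limma). Summed fibroblast markers (6 of 6 listed) ran from 27.3 to 28.9 scaled counts in shControl and from 11.9 to 13.1 in shMMP9. COL1A1 carried most of the difference, at 18.4 ± 1.85 and 3.15 ± 0.496, while PDGFRA of the same list rose from 2.16 ± 0.681 to 5.46 ± 0.694 (adjusted p = 9.95e-05). Summed keratinocyte markers (3 of 4 listed) ran from 70.0 to 81.6 and from 127 to 136, most of it KRT10. KRT14 rose from 4.04 ± 0.482 to 19.7 ± 1.53 (log2 change 2.04, adjusted p = 2.87e-09, limma). KRT5, not tested, went the other way, at 0.370 ± 0.105 and 0.0367 ± 0.00304. Leukocyte markers (2 of 5 listed, with PTPRC not among them) summed to 2.46 to 2.91 and 7.24 to 7.69, and endothelial markers (3 of 3) to 2.34 to 4.07 and 2.48 to 3.81. Mitochondrially encoded genes held 1.64 to 1.79% of reads in shControl and 0.617 to 0.708% in shMMP9, and the part of these differences in the histone results was not tested.

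Among the replacement genes the linker histone H1F0 rose, the linker histone H1FX and 5 of 6 H2A variants fell, and the 3 H3 genes did not pass the test. In all, 1 of 11 rose and 6 fell (adjusted p under 0.05, limma), with a median log2 change of -0.27. The background is high here: 57.5% of 17194 tested genes passed (25.0% rising and 32.5% falling), with a median of -0.05, and among genes at the mean levels of the replacement members other than H3F3C 64.7% passed (30.5% rising and 34.3% falling). The share of replacement genes called, 63.6%, was near that background. In bulk RNA, fewer cells of a type and less RNA per cell cannot be told apart. All 11 genes passed the filter on low values, H3F3C only through the shControl libraries, and it is included in the counts and the median of this class.

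H1F0 encodes H1.0, the linker histone known to build up in differentiated and resting cells. This intronless gene lies on chromosome 22 at 37805093 to 37807436 (GRCh38, plus strand). It stood at 364, 319 and 327 scaled counts in the shControl libraries, in the order of the replicates, and at 557, 531 and 555 in shMMP9. Every shMMP9 library lay above every shControl library, and H1F0 rose with a log2 change of 0.70 (SE 0.0560, adjusted p = 1.95e-07, limma), a ratio of means of 1.63. H1FX, on chromosome 3 at 129314771 to 129316277 (minus strand), encodes H1.10, a divergent linker histone. It stood at 412, 431 and 412 in shControl and at 313, 314 and 364 in shMMP9. The groups did not overlap, with shMMP9 replicate 3 nearest to the controls, and H1FX fell with a log2 change of -0.34 (SE 0.0601, adjusted p = 2.87e-04). The antisense gene H1FX-AS1 shares 345 exon bases with H1FX and, without a stated strand setting, their reads cannot be told apart, but it held 0.640 scaled counts in shControl and 0.969 in shMMP9.

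The 2 linker genes changed order. The ratio of H1F0 to H1FX within a library was 0.883, 0.742 and 0.794 in the shControl libraries, by replicate, and 1.78, 1.69 and 1.53 in shMMP9. H1F0 thus made up 42.3 to 46.5% of the scaled counts of the listed linker genes in shControl and 60.1 to 63.5% in shMMP9. H1FX made up 52.7 to 57.0% and 35.7 to 39.3%. The replication-dependent H1 genes HIST1H1C and HIST1H1E together stayed under 1% of them in each library. HIST1H1A, HIST1H1B and HIST1H1D are not listed and the RNA selection is not given, so this low share does not measure linker makeup. Ratios and shares within a library do not depend on the scaling between libraries. They are not divided by gene length. Per kilobase of the median coding transcript, mean scaled counts of H1F0 and H1FX were 144 and 277 in shControl and 234 and 219 in shMMP9.

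**Figure D1:**
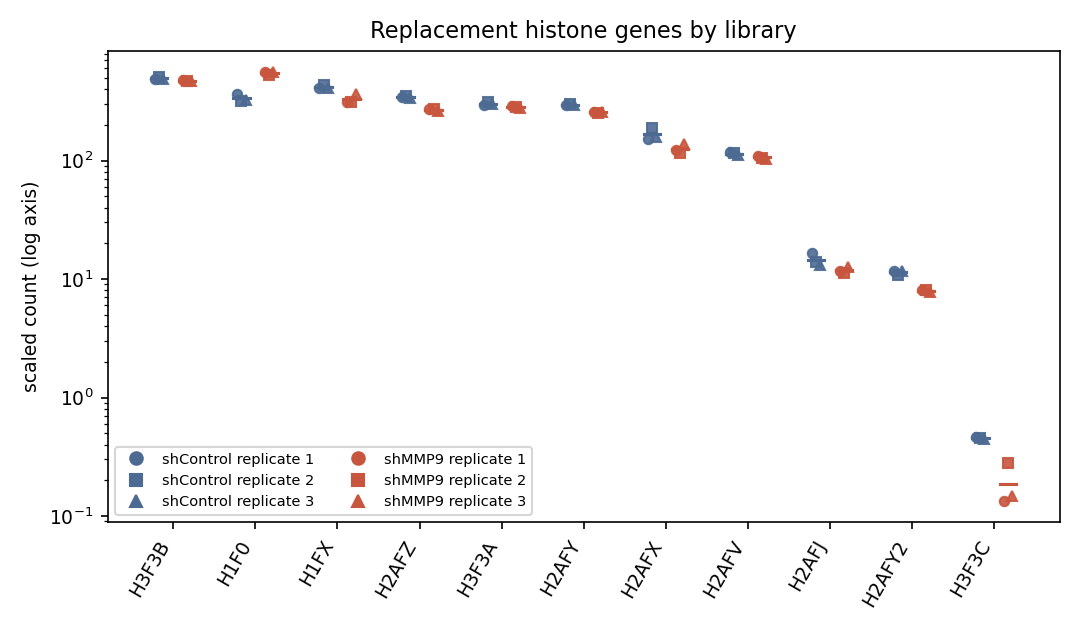
Scaled counts (log axis) of the 11 replacement histone genes in each library, ordered by mean level, with horizontal bars for group means (n = 3). H1F0 alone has its shMMP9 points above the shControl points, and in the other 10 genes all shMMP9 points lie below. Of these, H3F3C passed the filter only through shControl. Among all tested genes 35.1% were lower in shMMP9 without overlap.

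All 6 H2A variants were lower in shMMP9 without overlap. Among all tested genes 62.7% did not overlap, 35.1% being lower in shMMP9 and 27.6% higher. H2AFZ encodes H2A.Z.1, which marks promoters and enhancers. It stood at 341, 349 and 334 scaled counts in shControl and at 274, 270 and 264 in shMMP9, and fell with a log2 change of -0.34 (SE 0.0450, adjusted p = 2.57e-05, limma). The libraries of each group lay close together and far from the other group. H2AFV, which encodes the paralogue H2A.Z.2, stood at 117, 116 and 111 and at 110, 105 and 104, a change of -0.11 (adjusted p = 0.0699) that did not pass the test although the groups did not overlap. The ratio of H2AFZ to H2AFV was 2.98 ± 0.0535 in shControl and 2.54 ± 0.0435 in shMMP9 (SD, n = 3), without overlap.

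H2AFX encodes H2A.X, which is phosphorylated beside DNA breaks. Its levels were 153, 186 and 159 scaled counts in shControl and 124, 116 and 137 in shMMP9. It fell with a log2 change of -0.40 (SE 0.0755, adjusted p = 5.21e-04, limma), and shControl replicate 2 was the highest library. The gene spans 119093854 to 119095467 on chromosome 11 (minus strand). Its longest model runs 1044 bases past the stem-loop shown above, so the annotated gene does not end there. The same distance was 1761 bases in HIST1H2AG, 1510 in HIST4H4, 1479 in HIST2H2BF, 1167 in HIST2H4A, 390 in HIST3H2A and 35 in HIST2H2AA4.

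The macroH2A genes H2AFY and H2AFY2 encode H2A variants with a large non-histone domain, found on silenced chromatin. H2AFY stood at 293, 298 and 296 scaled counts in shControl and at 259, 253 and 259 in shMMP9, and fell by 0.20 in log2 (SE 0.0435, adjusted p = 0.00128, limma). H2AFY2 was far weaker, at 11.7, 10.9 and 11.7 in shControl and at 8.09, 8.05 and 7.72 in shMMP9, and fell by 0.47 in log2 (SE 0.0914, adjusted p = 6.45e-04). Both had tight groups without overlap, and the ratio of H2AFY to H2AFY2 went from 26.0 ± 1.24 to 32.3 ± 1.08 (SD, n = 3). H2AFY has splice forms with different ligand binding, which gene counts do not separate. The antisense gene C5orf66 shares 4968 exon bases with H2AFY and was at 1.60 in shControl and 0.650 in shMMP9.

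H2AFJ encodes H2A.J, a variant known to accumulate in senescent cells. It stood at 16.6, 14.0 and 13.1 scaled counts in shControl and at 11.7, 11.3 and 12.6 in shMMP9, without overlap but with shControl replicate 3 close above shMMP9 replicate 3. It fell by 0.27 (SE 0.0979, adjusted p = 0.0284, limma). The call was lost without shControl replicate 1 (adjusted p = 0.110), without shMMP9 replicate 1 (0.0801) or shMMP9 replicate 2 (0.0864), and under median-of-ratios (0.0668) and total-read scaling (0.0778).

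H3F3A and H3F3B encode the same protein, H3.3, the replacement H3 of active genes and, through other chaperones, of telomeric chromatin. H3F3B stood at 486, 503 and 488 scaled counts in shControl and at 478, 472 and 464 in shMMP9, a change of -0.06 (95% interval -0.16 to 0.04, adjusted p = 0.261, limma). H3F3A stood at 294, 310 and 302 and at 290, 281 and 279, a change of -0.09 (95% interval -0.19 to 0.01, adjusted p = 0.107). In both genes each shMMP9 library was below each shControl library, by small steps. H3F3A passed the test once shControl replicate 1 was left out (adjusted p = 0.0273). The ratio of H3F3B to H3F3A overlapped between groups, at 1.63 ± 0.0179 and 1.66 ± 0.0156 (SD, n = 3). H3F3C, which encodes the testis variant H3.5, had 12 to 14.1 reads per shControl library and 4 to 7 per shMMP9 library, a change of -0.30 (adjusted p = 0.0509), and since it reached the read minimum only where it is high, nothing is read from it.

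Measured against H3F3B in the same library, the variants differed in the same directions as above. H2AFZ over H3F3B was 0.693 ± 0.00916 in shControl and 0.572 ± 0.00232 in shMMP9 (SD, n = 3). H2AFX over H3F3B was 0.337 ± 0.0292 and 0.267 ± 0.0260, and H2AFY over H3F3B 0.601 ± 0.00714 and 0.545 ± 0.0107. H1F0 over H3F3B went from 0.684 ± 0.0584 to 1.16 ± 0.0351, and H1FX over H3F3B went from 0.849 ± 0.00663 to 0.701 ± 0.0713. In none of these 5 ratios did the groups overlap. All 5 genes had already passed the test, so the ratios restate their changes. Of all genes tested, 62.7% did not overlap in their own scaled counts.

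As a class, the replacement genes held similar shares of all reads, 0.270 to 0.279% in shControl and 0.272 to 0.282% in shMMP9, ranges that overlap. Within the class the makeup differed. The linker genes H1F0 and H1FX held 0.0813 to 0.0868% of reads in shControl and 0.0975 to 0.106% in shMMP9. The 6 H2A variants held 0.102 to 0.107% and 0.0880 to 0.0905%, and the 3 H3 genes 0.0870 to 0.0894% and 0.0857 to 0.0884%. The linker and H2A shares did not overlap between groups and the H3 shares did. An exact two-sided permutation test of 3 libraries against 3 cannot give a p below 0.1, so no test of these shares was made.

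**Figure D2:**
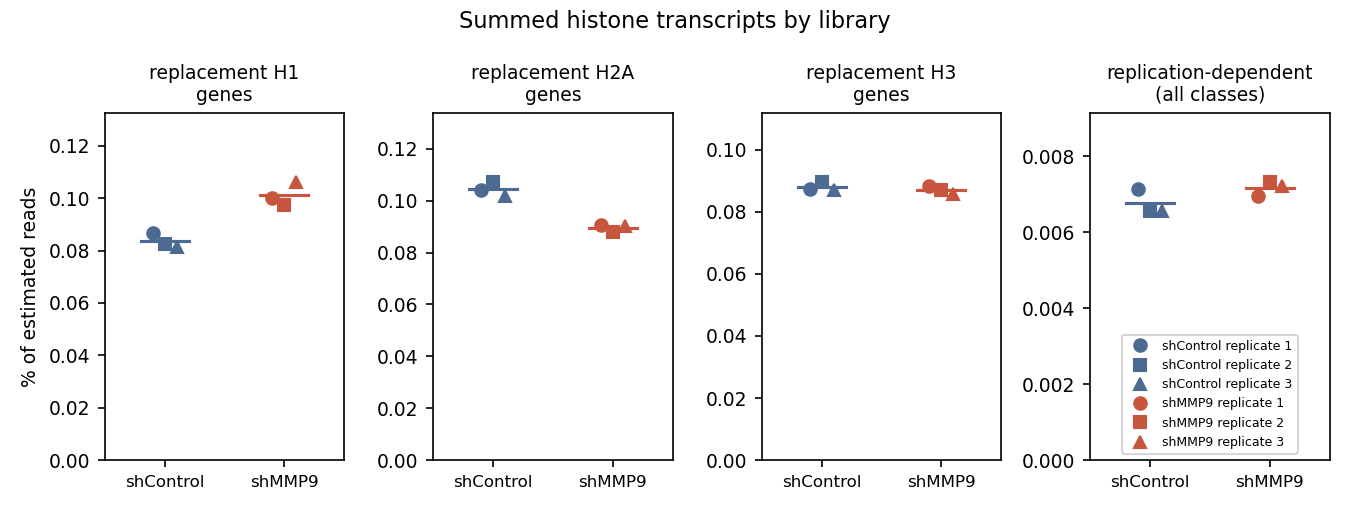
Share of each library's estimated reads (%) held by the replacement H1, H2A and H3 genes and by all 26 replication-dependent genes, with bars for group means (n = 3) and axes that start at 0. Linker shares are higher and H2A shares lower in every shMMP9 library, while H3 and replication-dependent shares overlap.

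Levels can be set between genes only per length. Per kilobase of the median annotated coding transcript, mean scaled counts in shControl were 848 for H3F3B, 349 for H2AFZ, 277 for H1FX, 252 for H3F3A, 174 for H2AFV, 158 for H2AFY, 144 for H1F0 and 111 for H2AFX. In shMMP9 H1F0 was at 234 per kilobase, above H1FX at 219 and next to H3F3A at 237. The median transcript of H3F3B is 581 bases, short against its longest models, so its place at the top depends on the annotation used. The same holds for the place of H2AFV, with a median of 657.5 bases and a model that runs 3356 bases past the coding end.

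The replication-dependent genes were weak, and most did not pass the test. All 26 together held 0.00657 to 0.00715% of reads in shControl and 0.00695 to 0.00732% in shMMP9, from 1599 to 1839 reads in a library, and the ranges overlap. The filter on low values kept 24 and removed HIST1H1E and HIST2H3D. Of the 24, 3 rose (HIST1H2AG, HIST4H4 and HIST2H2BF), 0 fell and 21 did not pass at an adjusted p under 0.05 (limma), with 4 higher and 2 lower at an unadjusted p under 0.05 and a median log2 change of 0.06. Limma-voom on estimated reads gave the same counts of 3 and 0. The 12.5% called is below the 47.7% (17.7% rising, 30.0% falling) among the 7377 tested genes within the same range of mean levels (the members' median was 1.17 scaled counts), where the median log2 change was -0.10. The median half-width of a 95% interval was 0.32 on the log2 scale for these 24 genes and 0.12 for the replacement genes, so a change of the size of that of H2AFY (-0.20) lay within the typical interval of these genes. By chromosome, 13 of the 26 lie on chromosome 6 (12 tested, 1 rose), 12 on chromosome 1 (11 tested, 1 rose) and 1 on chromosome 12 (tested, rose).

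**Figure D3:**
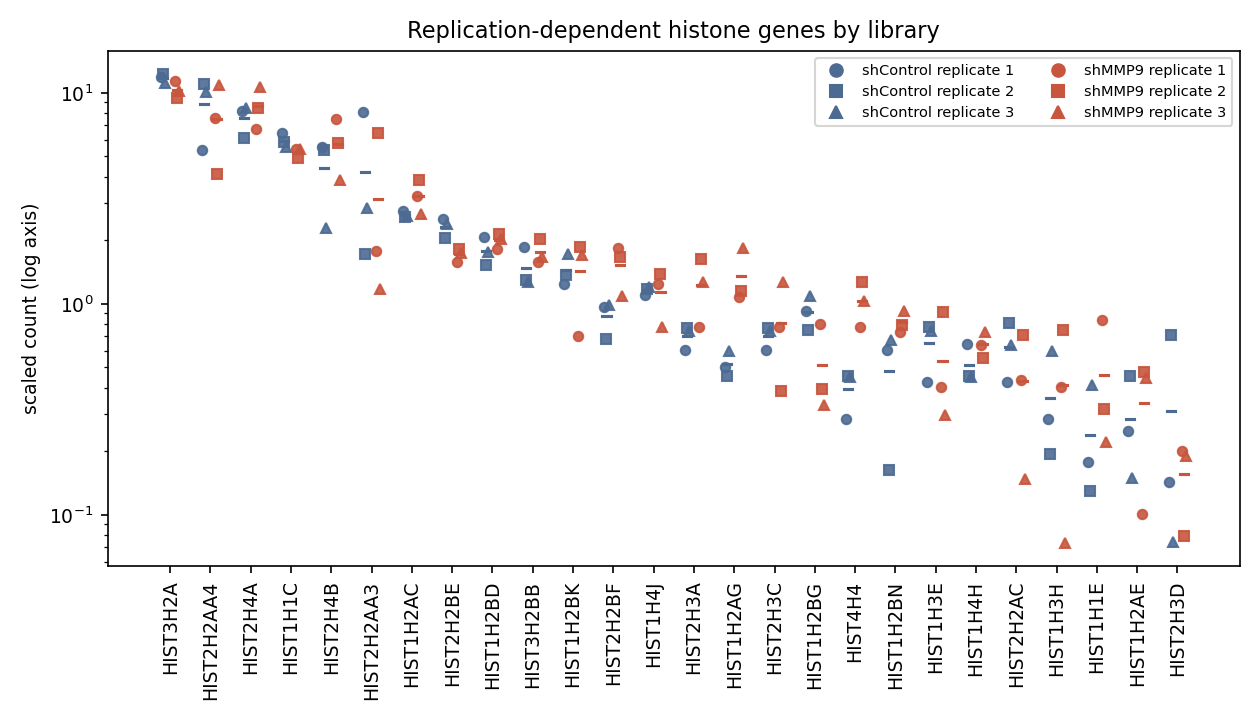
Scaled counts (log axis) of the 26 replication-dependent histone genes in each library, ordered by mean level, with horizontal bars for group means (n = 3). Only 5 tested genes have a mean of at least 5, and the points of most genes overlap between groups. All shMMP9 points lie above all shControl points in 5 genes. These are HIST1H2AG, HIST4H4 and HIST2H2BF, which were called, and HIST1H2BN and HIST2H3A, which were not. They lie below in 2 genes, HIST1H1C and HIST2H2BE, neither called. Among all tested genes 27.6% were higher and 35.1% lower in shMMP9 without overlap.

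HIST1H2AG is a gene for canonical H2A in the chromosome 6 cluster (27133042 to 27135291, plus strand). Its reads numbered 14, 14 and 16 in the shControl libraries, by replicate, against 32, 29 and 50 in shMMP9, or 0.517 ± 0.0729 and 1.36 ± 0.426 scaled counts (SD, n = 3). The groups did not overlap and shMMP9 replicate 3 was the highest. It rose by 0.62 (SE 0.145, adjusted p = 0.00239, limma), or by 1.33 with limma-voom, which adds no full scaled count before the log.

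HIST4H4 is an H4 gene outside the large clusters, on chromosome 12 (14767999 to 14771131, minus strand). Its neighbour H2AFJ, which fell, starts at 14774383 on the other strand. It had 8, 14 and 12 reads in shControl and 23, 32 and 28 in shMMP9, or 0.396 ± 0.0961 and 1.03 ± 0.248 scaled counts. It rose by 0.53 (SE 0.135, adjusted p = 0.00434, limma), or by 1.32 with limma-voom, and the groups did not overlap. HIST2H2BF, an H2B gene of the chromosome 1 cluster (149782689 to 149812373, minus strand), stood at 0.962, 0.682 and 0.988 scaled counts in shControl and at 1.83, 1.67 and 1.08 in shMMP9, where replicate 3 was close to the controls. Its rise of 0.42 (SE 0.147, adjusted p = 0.0255) was lost without shControl replicate 2 (adjusted p = 0.0945), shMMP9 replicate 1 (0.112) or shMMP9 replicate 2 (0.0802). Its exons overlap FCGR1A on the other strand by 177 bases.

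The promoters of these 3 genes and of H2AFX were compared for motifs known from histone genes, searched on both strands in 300 bases (250 before and 50 after the start, RefSeq, GRCh38.p14). The motifs were the TATA box TATAAA, which reads TTTATA on the other strand, the CCAAT box, which reads ATTGG on the other strand, and the octamer ATGCAAAT, with ATTTGCAT as its reverse. No motif contains another, but the TATA forms can overlap each other. Of 37 genes 33 matched the RefSeq table, the other four being H1F0, H3F3C, HIST2H2AA3 and HIST2H2AA4. The 250 bases before the start are printed with matches in capitals.
HIST1H2AG, chr6:27132793-27133042, plus strand: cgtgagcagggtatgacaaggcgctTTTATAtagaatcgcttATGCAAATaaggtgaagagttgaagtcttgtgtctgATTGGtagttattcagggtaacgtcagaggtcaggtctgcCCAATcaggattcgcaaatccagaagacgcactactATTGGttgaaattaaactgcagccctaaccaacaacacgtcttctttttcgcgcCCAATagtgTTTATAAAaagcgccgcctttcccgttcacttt
HIST2H2BF, chr1:149812371-149812620, minus strand: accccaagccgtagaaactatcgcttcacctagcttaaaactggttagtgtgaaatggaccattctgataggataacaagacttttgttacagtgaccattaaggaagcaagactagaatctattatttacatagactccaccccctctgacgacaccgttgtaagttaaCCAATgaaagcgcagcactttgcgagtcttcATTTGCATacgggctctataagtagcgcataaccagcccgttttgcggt
HIST4H4, chr12:14771132-14771381, minus strand: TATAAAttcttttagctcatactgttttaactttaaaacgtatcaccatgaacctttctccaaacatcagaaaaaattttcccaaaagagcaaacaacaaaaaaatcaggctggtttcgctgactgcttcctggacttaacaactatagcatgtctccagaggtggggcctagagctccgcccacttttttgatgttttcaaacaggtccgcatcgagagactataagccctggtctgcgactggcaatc
H2AFX, chr11:119095466-119095715, minus strand: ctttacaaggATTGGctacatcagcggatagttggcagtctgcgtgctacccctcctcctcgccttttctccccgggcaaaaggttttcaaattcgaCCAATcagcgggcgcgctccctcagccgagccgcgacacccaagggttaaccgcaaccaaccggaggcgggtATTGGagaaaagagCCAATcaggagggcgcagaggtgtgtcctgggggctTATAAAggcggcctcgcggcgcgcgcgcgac
HIST1H2AG holds 3 TATA, 4 CCAAT and 1 octamer match, of which the last pair of TATA matches overlaps. HIST2H2BF holds 1 CCAAT and 1 octamer match, HIST4H4 1 TATA match at the far end of its window, and H2AFX 1 TATA and 4 CCAAT matches. A TATA match was found in 16 of 24 replication-dependent genes and 4 of 9 replacement genes matched, against 14.0% of 27305 genes. CCAAT was found in 19 of 24 and 7 of 9 against 39.7%. The octamer was found in 8 of 24, among them 4 of 7 H2B genes, and in 1 of 9 replacement genes, H3F3B, against 2.19% of all genes. In exact form, none of these motifs was found in all 3 genes that rose. Near forms, such as TATAAG in the printed windows of HIST2H2BF and HIST4H4, were not counted. A match is a description of letters, not of binding.

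Of the other replication-dependent genes, the linker gene HIST1H1C (H1.2) stood at 6.41, 5.82 and 5.53 scaled counts in shControl and at 5.44, 4.92 and 5.39 in shMMP9. Each shMMP9 library was below each shControl library, though shMMP9 replicate 1 only just, and the change of -0.15 did not pass (95% interval -0.38 to 0.09, adjusted p = 0.277, limma). HIST3H2A stood at 11.9, 12.3 and 11.2 and at 11.4, 9.48 and 10.2, with overlap at shMMP9 replicate 1 (change -0.17, adjusted p = 0.146). HIST1H1E (H1.4), not tested, had 4 to 11 reads in shControl and 6 to 25 in shMMP9.

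The 7 H2A genes had log2 changes from -0.36 to 0.62 with 1 rise, and the 7 H2B genes from -0.35 to 0.42 with 1 rise. In the H2B group HIST2H2BE stood at 2.32 ± 0.248 and 1.71 ± 0.125 scaled counts (SD, n = 3) without overlap, a change of -0.29 that did not pass (adjusted p = 0.0605, limma). HIST1H2BG stood at 0.919 ± 0.168 and 0.512 ± 0.257 with overlap, a change of -0.35 (adjusted p = 0.0534), and HIST1H2BN at 0.480 ± 0.277 and 0.818 ± 0.0951 without overlap, a change of 0.31 (adjusted p = 0.0937). Thus H2B genes lay on both sides of 0. HIST1H2AC, HIST1H2AE, HIST2H2AC, HIST1H2BD, HIST1H2BK and HIST3H2BB overlapped between groups, with changes from -0.19 to 0.22. Of the H3 and H4 genes outside the identical copies described next, HIST1H3E, HIST1H3H, HIST1H4H and HIST1H4J overlapped too, with changes from -0.12 to 0.12, and HIST2H3D, not tested, had 2 to 22 reads in shControl and 2 to 6 in shMMP9. Without overlap, 5 of the 24 tested genes were higher in shMMP9 and 2 lower, against 27.6% and 35.1% of all genes tested.

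The chromosome 1 cluster holds 3 pairs of genes with identical coding sequence, among which reads cannot be assigned with certainty. HIST2H2AA3 and HIST2H2AA4 (390 coding bases each) stood at 8.13 and 5.37 in shControl replicate 1, at 1.72 and 11.0 in replicate 2 and at 2.84 and 10.1 in replicate 3. In shMMP9 replicates 1 to 3 they stood at 1.78 and 7.59, at 6.43 and 4.11, and at 1.18 and 10.9. The copies thus varied 6.91-fold and 2.67-fold over the 6 libraries, the second copy being low where the first was high, while their sum varied 1.44-fold. Neither copy passed the test (changes of -0.36 and -0.23, adjusted p = 0.497 and 0.487, limma). The sum, an alternative chosen after seeing the data, was 13.1 ± 0.409 in shControl and 10.7 ± 1.38 in shMMP9 (SD, n = 3) without overlap, and fell by 0.27 (adjusted p = 0.0315).

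HIST2H4A and HIST2H4B (309 coding bases) stood at 8.20 and 5.56, 6.11 and 5.33, and 8.50 and 2.29 in the shControl libraries, by replicate, and at 6.72 and 7.55, 8.49 and 5.79, and 10.6 and 3.85 in shMMP9. The copies overlapped between groups (changes of 0.15 and 0.35, adjusted p = 0.416 and 0.247, limma). Their sum was 11.99 ± 1.56 and 14.3 ± 0.120 without overlap, and rose by 0.25 (adjusted p = 0.0427). HIST2H3A and HIST2H3C (408 coding bases) had equal values in 5 of 6 libraries, and 1.64 and 0.386 in shMMP9 replicate 2. Their sum was 1.41 ± 0.173 and 2.04 ± 0.502, a change of 0.32 that did not pass (adjusted p = 0.0718), and the changes of the copies were 0.37 and 0.06 (adjusted p = 0.0539 and 0.782). Each of these H3 genes shares 173 exon bases, on opposite strands, with an H4 copy (HIST2H3A with HIST2H4B, HIST2H3C with HIST2H4A), and without a stated strand setting reads there cannot be told apart.

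**Figure D4:**
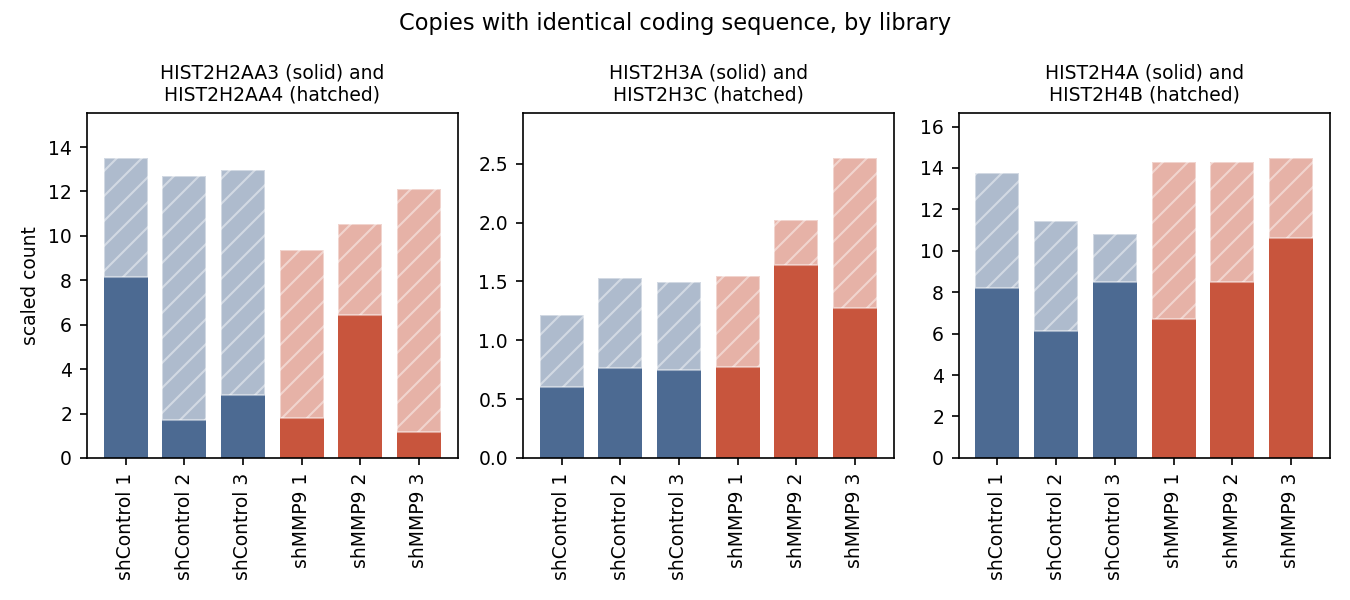
Scaled counts of the 3 pairs with identical coding sequence in each library, stacked as the first copy (solid) and the second (hatched). The split between HIST2H2AA3 and HIST2H2AA4 moves far more between libraries than the height of the stack, which varies 1.44-fold.

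Set side by side, the replacement genes had 10 of 11 log2 changes below 0 and the tested replication-dependent genes 10 of 24, with medians of -0.27 and 0.06. Medians of all genes in their ranges of level were -0.02 and -0.10. H3F3C, which passed the filter only through shControl, counts among the 10 and in the replacement median, but not in that range of level. Over the other scalings, pseudocounts, left-out libraries and fits tried, the replacement median ran from -0.30 to -0.20 and the replication-dependent one from 0.02 to 0.14. No test over members was made, since the members were chosen with results known.

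**Figure D5:**
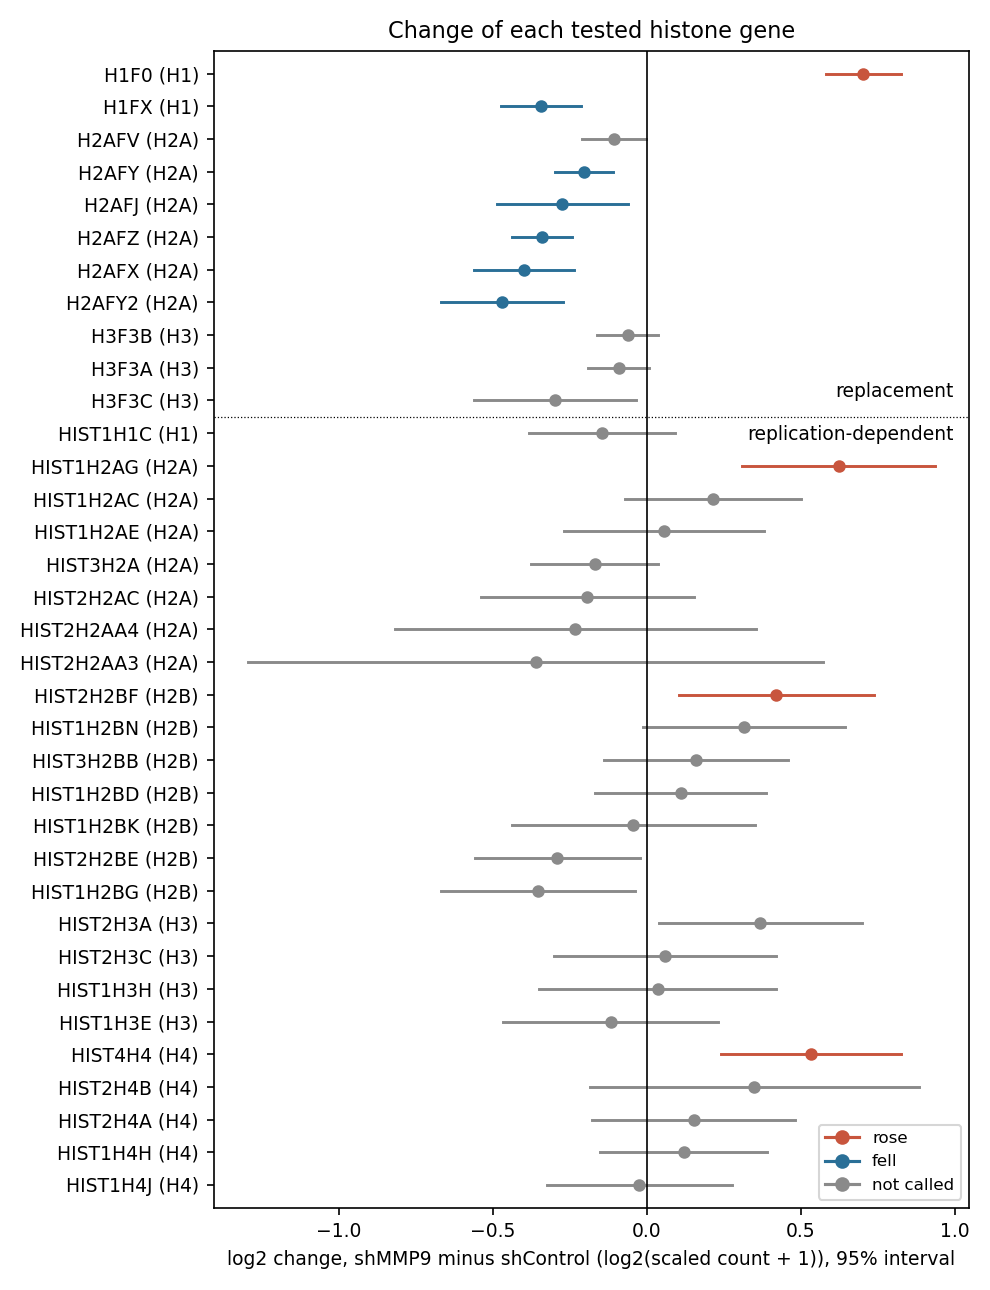
Log2 change (shMMP9 minus shControl, on log2(scaled count + 1)) with its 95% interval for each of the 35 tested histone genes, replacement genes above the dotted line and replication-dependent genes below, coloured by call. H1F0 stands at 0.70 against H2A variants between -0.47 and -0.11, and intervals are widest for HIST2H2AA3 and HIST2H2AA4.

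Of 26 factors for the synthesis, processing and decay of histone mRNA, all tested, 7 rose and 9 fell, with a median log2 change of -0.01. Among all genes tested 25.0% rose and 32.5% fell, and the share called in this list is near that background. SLBP, the stem-loop binding protein, stood at 76.7 ± 2.997 and 76.0 ± 2.69 scaled counts (SD, n = 3), and SLBP was named after its values were seen. Of the 4 factors with the smallest adjusted p, LSM10, a subunit of the U7 particle that cuts histone pre-mRNA, rose from 22.1 ± 2.03 to 32.0 ± 0.351 (0.52, adjusted p = 4.65e-05, limma). CASP8AP2, a histone locus body protein, rose from 18.8 ± 1.75 to 25.5 ± 0.774 (0.43, adjusted p = 4.30e-04). CPSF3, the endonuclease of the cleavage complex, fell from 102 ± 1.77 to 81.6 ± 1.64 (-0.32, adjusted p = 5.47e-05), and NCBP2, the small cap-binding subunit, from 108 ± 5.42 to 79.1 ± 1.48 (-0.45, adjusted p = 6.66e-06).

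Of 35 histone chaperones and exchange factors, all tested, 6 rose and 14 fell, with a median of -0.07, beside 25.0% rising and 32.5% falling among all genes tested, so this share is near the background too. Under median-of-ratios scaling 10 rose and under total-read scaling 11. RBBP4 and RBBP7, histone-binding subunits of chromatin complexes, fell from 159 ± 4.10 to 117 ± 2.36 scaled counts (-0.45, adjusted p = 2.47e-06, limma) and from 205 ± 4.59 to 152 ± 2.00 (-0.43, adjusted p = 2.47e-06). SUPT16H, a subunit of the FACT chaperone that moves H2A and H2B, fell from 291 ± 6.28 to 218 ± 5.56 (-0.42, adjusted p = 4.06e-06). UBN1, a subunit of the HIRA complex that deposits H3.3, rose from 69.8 ± 7.70 to 109 ± 2.89 (0.63, adjusted p = 4.44e-06), whereas HIRA itself, named after its values were seen, stood at 39.5 ± 3.78 and 35.9 ± 1.74 with overlap.

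Of 20 S phase genes, all tested, 8 rose and 9 fell, with a median of -0.03, beside 25.0% rising and 32.5% falling among all genes tested. The licensing factor CDT1 fell from 103 ± 6.57 to 57.7 ± 1.26 scaled counts (-0.82, adjusted p = 3.90e-08, limma) and the helicase subunit MCM4 from 318 ± 14.0 to 212 ± 0.165 (-0.58, adjusted p = 2.51e-07). The transcription factor E2F1 rose from 52.9 ± 3.86 to 85.1 ± 2.57 (0.68, adjusted p = 4.79e-07). The part of the cell cycle in the histone values was not tested.

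Of 8 proteases named in the field as candidates for cutting histone tails 5 were listed. MMP9 is given above. MMP2, the other gelatinase, fell from 348 ± 16.9 to 199 ± 12.2 scaled counts (-0.80, adjusted p = 5.55e-08, limma). The lysosomal proteases CTSL and CTSD rose from 64.7 ± 3.80 to 121 ± 0.882 (0.89, adjusted p = 9.41e-09) and from 175 ± 16.2 to 224 ± 7.10 (0.36, adjusted p = 2.48e-04). CTSB stood at 294 ± 9.02 and 274 ± 2.32 and did not pass (adjusted p = 0.0842). Transcript levels measure neither proteolysis nor histone protein.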

How the data were processed

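Total RNA of A375 cells was sequenced in 6 libraries, grouped by the treatment label, with replicate numbers from the titles. The submitters' processing notes name STAR 2.6.1d, Partek and hg38. For the counting method, annotation, strand and library kit, nothing is given in the sources used here. Values deposited by the authors are on a log2 scale and, from the values themselves, are log2(scaled count + 1), with an upper quartile that is shared by the libraries. Low values are multiples of 1 step per library, which gave estimated reads (64.5 to 67.8% whole within 0.01), with the precision of a weak gene limited by its reads. Symbols of 23 genes had turned into dates and were not used.

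The design provided for a count test if the table held raw counts; it does not, so limma 3.58.1 (R 4.3.3) was fitted to the deposited log2 values with a variance trend, the pseudocount of 1 and no other scaling. The filter asked for 10 reads, at median depth, in 3 libraries and for 15 in total (17194 kept, 1345 removed), with Benjamini-Hochberg adjustment over all of them and a threshold of 0.05. The fit was tested on simulated data, with changes placed only in genes with a mean scaled count of at least 5. That test therefore does not cover changes in most of the replication-dependent genes. Members were matched to GENCODE 29, stem-loops were read from its transcripts, promoters from RefSeq. The members and lists were chosen with earlier results of these data known. Per library values are given for members that passed the test or had a mean scaled count of at least 5, other members by ranges and counts, and of each context list the 4 genes with the smallest adjusted p. A gene that this rule takes is not reported here. TUT4 and TUT7 were entered under older symbols. Alternatives were a replicate block, leaving out each library, other scalings, no filter, other pseudocounts, limma-voom on estimated reads, no variance trend, a threshold of 0.01 and, chosen after seeing the data, summing identical copies. Figures were drawn with matplotlib 3.10.9.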

Additional observations from a re-analysis of the deposited data

How the results depend on the processing

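H1F0, H1FX, H2AFX, H2AFY, H2AFY2 and H2AFZ kept their direction and call under all 16 alternatives, with log2 changes of 0.67 to 0.76 for H1F0, as did HIST1H2AG and HIST4H4, whose changes ran from 0.24 to 1.33 and from 0.19 to 1.32 over pseudocounts and limma-voom. The replacement genes had 5 to 7 falling, the seventh being H3F3C, and 1 rising. Replication-dependent genes that fell went from 0 to 1 with a pseudocount of 4 (HIST2H2BE), with identical copies summed (1, the pair HIST2H2AA3 and HIST2H2AA4) and to 2 with no variance trend (HIST1H2BG and HIST2H2BE), and ran from 0 to 1 with single libraries left out (HIST1H2BG, without shControl replicate 2 or shMMP9 replicate 1). Rising ones stood at 4 under either other scaling, HIST2H3A being added. HIST1H4J changed sign under both, from -0.03. Rising chaperones went from 6 to 10 with median-of-ratios and 11 with total-read scaling, since these scalings move the median of all genes from -0.05 to 0.00. HIST2H2AA4, not called, ran from -0.52 to 0.10 with single libraries left out, reversing without shMMP9 replicate 2. With the replicate block 5 replication-dependent genes rose, HIST2H3A and HIST2H4B (adjusted p = 0.0382, limma) being added. Deviations of equally numbered libraries correlated at 0.04, -0.13 and -0.03, and libraries did not each correlate best with their own number. These values give no sign that the numbers pair the samples. With so few libraries per group they cannot exclude it, and the labels state no block. The block changed no call of a replacement gene. Of the tested replication-dependent genes 11 of 24 had a mean scaled count under 1, and how far depth set their few calls was not tested.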

Other observations

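The rows set aside by the rule hold values too. HIST2H3DP1, an H3 pseudogene of chromosome 1 (121118195 to 121118610, minus strand), counted 22, 20 and 28 reads in the shControl libraries against 42, 32 and 35 in shMMP9, and rose by 0.35 on the log2 scale (adjusted p = 0.0322, limma). HIST2H2BC and HIST2H2BD, H2B pseudogenes that lie among the identical copies of the chromosome 1 cluster, stood at 9.14 ± 1.61 and 9.41 ± 0.677 scaled counts (SD, n = 3) and at 5.78 ± 1.55 and 6.36 ± 0.723, with overlap in both. H3F3AP4, a processed copy of H3F3A on chromosome 2, stood at 2.58 ± 1.13 and 1.68 ± 0.218, and its reads and those of H3F3AP6 cannot be told apart with certainty from reads of H3F3A. HIST2H2BA and H1FX-AS1 overlapped between groups, and HIST2H2BB was not tested.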
